A study of Homo sapiens with 17 samples.

Results

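The regions described here are the 1723 ATAC-seq peaks that the deposited annotation calls distal intergenic and places 50 kb or more from the nearest transcription start site (TSS). They are 2.95% of the 58372 peaks with deposited counts and 16.8% of the intergenic peaks. The other 8560 intergenic peaks lie under 50 kb from a TSS and serve as the comparison. HepG2, an established human hepatocellular carcinoma line, was grown for 4 days without drug or with 5-azacytidine at 2 µM (the lower dose) or 10 µM (the higher dose), and the medium was replaced daily; the labels name no genetic change and no other agent for any group. Open chromatin was measured by ATAC-seq in 8 libraries (3 untreated, 3 lower dose, 2 higher dose) and RNA by RNA-seq in 9, with 3 for each dose. The labels do not say whether the libraries of a group came from separate cultures, so p-values measure the spread between these libraries, which may be technical. All 3 comparisons between doses share libraries with each other.

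Distal intergenic open sites are often enhancers, stretches of DNA where transcription factors displace nucleosomes and act on promoters over long distances. Enhancers differ more between cell types than promoters do, and in liver cells many are bound by HNF4A, FOXA and C/EBP factors. 5-azacytidine is a cytidine analogue that is built into RNA and DNA and traps DNA methyltransferases, so that methylation is lost as cells divide. In ATAC-seq a transposase cuts accessible DNA, and the reads in a peak measure how open the site is across the cells sampled.

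Every peak is 501 bp wide on the hg38 build. Distances to the TSS ran from 50.01 to 993 kb with a median of 86.4 kb. Of the peaks 791 lay upstream and 932 downstream of their nearest TSS, and together they named 986 nearest genes. Far from a TSS does not mean outside genes: 336 of the peaks (19.5%) lie inside a gene of the RefSeq table, 277 of them inside a long non-coding RNA gene and 35 inside a protein-coding gene, and 359 lie less than 50 kb from a protein-coding gene or inside one.

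The ATAC libraries held 2896671 to 7864321 reads in peaks and the RNA libraries 35553052 to 46430168 reads in genes. Of the hepatocyte marker list 9 of its 10 genes were found, and ALB was not. They summed to 22150 to 35980 CPM (reads scaled to a common library size) without drug. At the lower dose 3 of them fell and none rose, with a sum of 10820 to 18470 CPM. All 9 genes fell at the higher dose, to a sum of 662 to 957 CPM. The leukocyte list summed to 2333 to 3452 CPM in untreated cells, nearly all of it lysozyme (LYZ, mean 2745 CPM), while PTPRC, which marks all leukocytes, was at 0 in every library. The fibroblast list summed to 10.4 to 55.4 CPM and the endothelial list to 0.406 to 10.5 CPM over all libraries. The list of 4 other epithelial genes went from 388 to 508 CPM without drug to 495 to 1191 CPM at the higher dose, where KRT19 rose and SOX9 and EPCAM fell. The part of these shifts in the peak results was not tested, and in bulk samples fewer cells with an open site and less opening per cell cannot be told apart.

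A genome sequence was not used here, so letters are shown only where a peak covers the start of a gene in RefSeq. That holds for 23 of the 1723 peaks, over 24 start windows (250 bases before to 50 after the start, GRCh38.p14) of 23 long non-coding RNA genes, starts from which the deposited distances were not measured. Both strands were searched for the letters of 20 factor motifs. The SP/KLF letters occurred in 4 of the 24 windows but in 44.95% of all RefSeq windows, so for every motif the latter are no matched background. FOXA letters occurred in 4 windows (3.42% of all), and at the higher dose 2 of their peaks rose and 2 fell. C/EBP letters occurred in 3 (2.61%), where none rose and 2 fell, and NFY letters in 9 (34.6%), where 4 rose and 4 fell. The AP-1 letters TGANTCA, which dimers of the FOS and JUN families bind, occurred in 6 of the 24 windows and in 7.71% of all 35116 RefSeq windows of that length. Of the 6 peaks over these windows 5 rose at the higher dose and none fell (29.9% and 27.6% of all peaks; 51.8% and 30.8% of the distal intergenic peaks). The 4 windows printed here were chosen after their values were seen and show 3 peaks that rose and the one that did not pass, with the AP-1 letters in capitals. In LOC105378929 they overlap a match to the NRF2 motif.
LOC105378929, chr1:117821752-117822051, minus strand: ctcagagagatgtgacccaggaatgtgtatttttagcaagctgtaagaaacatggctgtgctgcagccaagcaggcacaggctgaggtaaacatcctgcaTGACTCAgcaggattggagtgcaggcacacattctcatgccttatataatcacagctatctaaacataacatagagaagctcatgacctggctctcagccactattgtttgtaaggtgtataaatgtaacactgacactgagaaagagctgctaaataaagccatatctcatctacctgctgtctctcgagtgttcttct
LOC105369574, chr11:130522217-130522516, plus strand: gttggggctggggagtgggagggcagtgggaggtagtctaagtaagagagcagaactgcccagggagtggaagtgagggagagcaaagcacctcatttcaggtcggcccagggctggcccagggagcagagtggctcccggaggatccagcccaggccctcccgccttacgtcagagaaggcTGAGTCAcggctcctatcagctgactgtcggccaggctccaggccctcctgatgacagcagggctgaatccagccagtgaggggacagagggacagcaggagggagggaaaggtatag
LOC124903079, chr12:114933533-114933832, minus strand: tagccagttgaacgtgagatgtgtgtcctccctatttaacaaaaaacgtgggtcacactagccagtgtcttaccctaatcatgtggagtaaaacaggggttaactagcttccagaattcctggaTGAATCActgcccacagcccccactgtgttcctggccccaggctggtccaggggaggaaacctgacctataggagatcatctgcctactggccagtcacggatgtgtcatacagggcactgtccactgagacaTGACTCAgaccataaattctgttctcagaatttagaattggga
LOC105373324, chr2:175865-176164, minus strand: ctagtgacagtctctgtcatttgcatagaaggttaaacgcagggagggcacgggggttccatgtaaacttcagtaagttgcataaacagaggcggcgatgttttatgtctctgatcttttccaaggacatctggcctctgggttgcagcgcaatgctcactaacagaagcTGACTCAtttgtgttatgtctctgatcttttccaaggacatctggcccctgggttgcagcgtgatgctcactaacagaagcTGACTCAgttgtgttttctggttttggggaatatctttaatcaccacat

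The HNF4A letters CAAAGTNCA, bound by a nuclear receptor that maintains hepatocyte identity, occurred in 2 of the 24 windows and in 1.10% of all RefSeq windows. Both are shown, also chosen after the values were seen, because their peaks moved in opposite directions at the higher dose. Capitals mark the HNF4A letters or their reverse complement.
LOC105376079, chr9:70470500-70470799, minus strand: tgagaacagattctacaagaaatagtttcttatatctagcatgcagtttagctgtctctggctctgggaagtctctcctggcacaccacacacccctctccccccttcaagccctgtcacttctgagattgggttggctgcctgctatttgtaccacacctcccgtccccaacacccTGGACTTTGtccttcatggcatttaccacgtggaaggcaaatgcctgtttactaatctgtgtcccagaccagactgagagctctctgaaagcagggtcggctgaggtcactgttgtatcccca
LOC105375602, chr7:156147119-156147418, plus strand: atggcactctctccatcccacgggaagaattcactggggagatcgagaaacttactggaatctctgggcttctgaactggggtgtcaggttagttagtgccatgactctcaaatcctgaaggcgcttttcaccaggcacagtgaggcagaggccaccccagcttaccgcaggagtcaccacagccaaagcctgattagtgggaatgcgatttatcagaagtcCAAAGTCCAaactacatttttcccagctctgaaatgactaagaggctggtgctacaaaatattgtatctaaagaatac

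The peak over the LOC124903079 start (chr12:114933390-114933890) held 4.85, 4.35 and 7.20 CPM in untreated cells, 11.0, 13.8 and 10.8 CPM with the lower dose and 36.0 and 27.4 CPM with the higher. No libraries of different doses overlapped, and the log2 difference from untreated cells was 1.10 (± 0.23 SE; adjusted p = 0.000608) for the lower and 2.56 (± 0.21 SE; adjusted p = 3.13e-12) for the higher dose. The LOC105369574 peak (chr11:130522161-130522661) rose by a log2 of 2.12 at the higher dose (adjusted p = 2.61e-10) and the LOC105378929 peak (chr1:117821686-117822186) by 1.73 (adjusted p = 4.53e-08). The LOC105373324 window holds the AP-1 letters at positions 171 and 252, counted from 1 at the 5′ end. Its peak (chr2:175874-176374) held 42.2 to 53.4 CPM without drug and 44.9 and 45.2 CPM at the higher dose, and did not pass (log2 -0.08, adjusted p = 0.679). In 5 of the 6 AP-1 windows a match lies inside the peak itself; in LOC105378678, whose peak rose by 0.84 (adjusted p = 7.74e-06), it lies outside.

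The peak over the LOC105376079 start (chr9:70470351-70470851) held 12.1, 14.0 and 11.6 CPM in untreated cells, 10.3, 13.4 and 7.77 CPM with the lower dose and 3.76 and 4.79 CPM with the higher. Both higher-dose libraries lay below the other 6, and the log2 difference from untreated cells was -1.59 (± 0.26 SE; adjusted p = 3.26e-06). The LOC105375602 peak (chr7:156147031-156147531) went from 4.61, 3.67 and 4.17 CPM to 11.9 and 11.7 CPM, a rise of 1.53 (± 0.26 SE; adjusted p = 5.23e-06). Over all 23 peaks on gene starts, 9 rose (39.1%) and 8 fell (34.8%) at the higher dose. The shares were 51.8% and 30.8% over the distal intergenic peaks and 29.9% and 27.6% over all peaks.

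At the higher dose the distal intergenic peaks took up a larger part of the reads than in any library of the other doses. They held 1.92%, 1.88% and 1.88% of the peak reads without drug, 1.98%, 1.84% and 1.73% with the lower dose, and 2.47% and 2.51% with the higher. The means were 1.89% ± 0.0258 (SD, n = 3), 1.85% ± 0.123 (SD, n = 3) and 2.49% ± 0.0256 (SD, n = 2), and the 95% Wilson interval of a single library, which covers counting error only, reached at most 0.016 points to either side. Exact two-sided permutation tests of the higher dose against untreated cells and against the lower dose each gave p = 0.1, the smallest that 3 and 2 libraries allow. An exact permutation test of any difference between the doses, over the 560 ways to assign them to the 8 libraries, gave p = 0.025 (0.025 after adjustment over 2 library measures). That call was lost when any single library but replicate 1 of the lower dose was left out (exact permutation p = 0.0667 to 0.1). The peak set was made from these same libraries, with names that begin with a dose. Distal peaks named for 10 µM held 0.472% to 0.521% of the reads without drug and 1.81% and 1.79% with the higher dose, and those named for 0 µM 1.05% to 1.10% and then 0.432% and 0.462%. How far the making of the set fixed the share was not tested, and its p-value, like that of the ratio to nearer peaks, is no evidence independent of it.

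Intergenic peaks nearer to a TSS did not gain reads in this way. They held 12.2% to 12.6% of the peak reads in untreated cells and 12.0% and 12.6% with the higher dose. The log2 ratio of reads in distal to reads in nearer intergenic peaks was -2.72, -2.70 and -2.73 without drug, -2.71, -2.78 and -2.80 with the lower dose, and -2.28 and -2.33 with the higher. Both higher-dose libraries lay above the other 6, and the exact permutation test over all doses gave p = 0.0107 (adjusted p = 0.0214), a call that held without each library in turn. The mean ratio differed by 0.41 between the higher dose and untreated cells and by 0.46 between both doses of the drug, and either pairwise exact test gave p = 0.1, the smallest that 3 and 2 libraries allow. The lower dose differed from untreated cells by -0.05 (exact permutation p = 0.3).

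**Figure D1:**
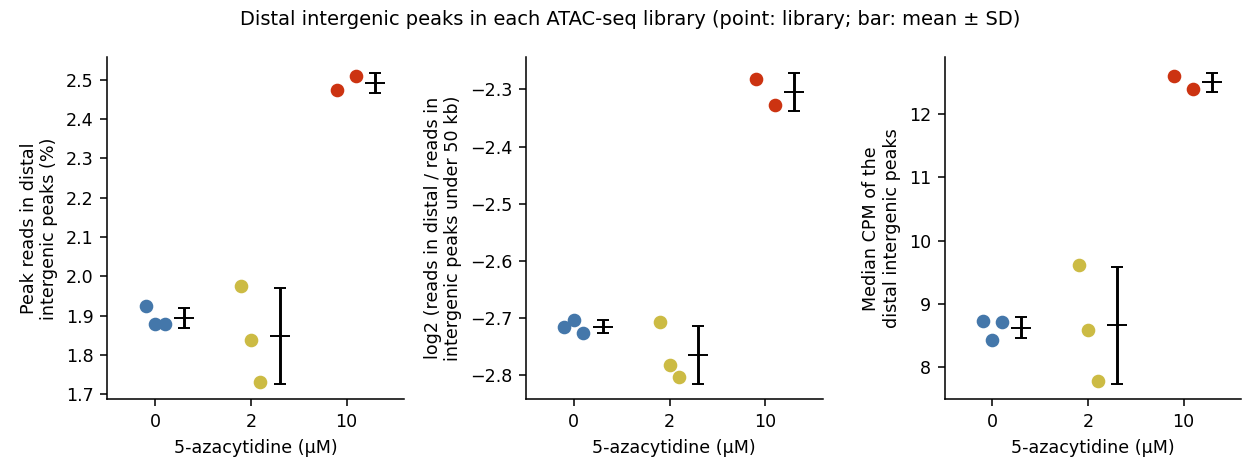
Share of peak reads in distal intergenic peaks (left, %), log2 ratio of their reads to those in intergenic peaks under 50 kb from a TSS (middle) and their median CPM (right) in each ATAC-seq library by dose of 5-azacytidine (µM). Both 10 µM libraries lie above all others in the 3 panels, at shares of 2.47% and 2.51%.

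Within a set made from these same libraries, the typical peak was more open as well. Its median level was 8.73, 8.43 and 8.71 CPM in untreated cells, 9.62, 8.60 and 7.77 CPM with the lower dose, and 12.6 and 12.4 CPM with the higher. The nearer intergenic peaks had medians of 11.6 to 12.4 CPM without drug and 12.1 and 12.4 CPM at the higher dose, so the distal peaks came to the level of the nearer ones. The number of distal intergenic peaks at 10 CPM or more was 738 to 772 in untreated cells, 626 to 800 with the lower dose, and 1109 and 1110 with the higher.

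Most distal intergenic peaks of this set changed at the higher dose, and more were called as rises than as falls. The set was made from these same libraries: 882 of the rises were in peaks named for 10 µM and 446 of the falls in peaks named for 0 µM. How far the making of the set fixed this balance was not tested. Against untreated cells, 893 of 1723 rose (51.8%; background of all peaks 29.9%) and 530 fell (30.8%; background 27.6%), in edgeR at an adjusted p under 0.05. The median log2 change was 0.66, against 0.05 over all peaks. Of the rises 800 were at least 2-fold and 631 at least 4-fold, while 392 falls reached 2-fold and 178 reached 4-fold. Among the 8560 nearer intergenic peaks 34.3% rose and 34.9% fell, with a median of -0.06, and among the 19763 promoter peaks 20.5% rose and 14.9% fell. Sites under 1 CPM on average without drug and at 5 CPM or more with the higher dose numbered 61 (3.54% of the distal peaks, 0.641% of all peaks), and 16 went the other way (0.929% and 0.377%). Among the 1387 peaks in no RefSeq gene 728 rose and 413 fell.

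**Figure D2:**
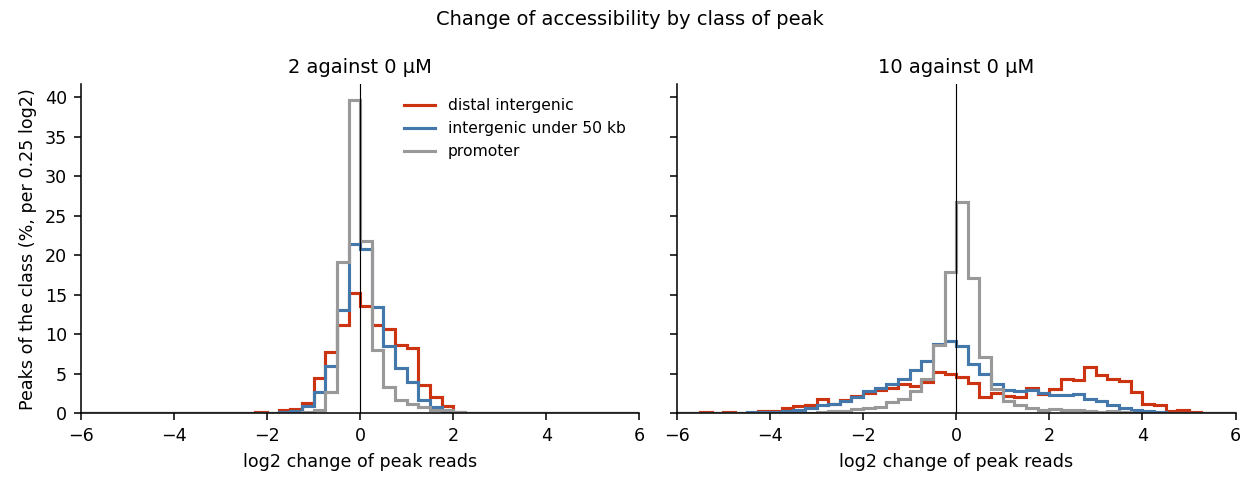
Distribution of the log2 change of peak reads at 2 µM (left) and 10 µM (right) against 0 µM, as the percentage of each class of peak per bin, for distal intergenic peaks, intergenic peaks under 50 kb from a TSS and promoter peaks. At 10 µM the distal peaks reach far to the right, where 631 of the 1723 rose at least 4-fold.

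The largest rises were at sites with few reads in untreated cells, which a ranking by log2 change favours. A peak 212 kb from LOC100505985 (chr6:50305606-50306106) held 2.18, 0.680 and 1.51 CPM without drug, 3.09, 6.88 and 4.64 CPM with the lower dose and 46.7 and 47.6 CPM with the higher. The doses did not overlap, and the log2 rise was 1.84 (± 0.36 SE; adjusted p = 0.000337) and then 5.13 (± 0.26 SE; adjusted p = 3.58e-16). A peak near LINC01613 (chr9:119818095-119818595) had 11 reads over the untreated libraries, 30 with the lower dose and 298 with the higher, a log2 rise of 5.20 (± 0.35 SE; adjusted p = 5.29e-14).

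The peak near LINC02572 (chr2:129801539-129802039) reached 48.7 and 55.8 CPM from 1.46 to 2.04 CPM. A peak 636 kb from MMUT (chr6:48827250-48827750), the gene of mitochondrial methylmalonyl-CoA mutase, reached 40.2 and 53.4 CPM from 1.36 to 2.27 CPM. Their log2 changes at the higher dose were 4.81 and 4.70, each with an adjusted p of 2.77e-16, while MMUT RNA fell by 1.27 (adjusted p = 0.00028). The other 6 of the 10 largest rises lay nearest to PPP1R3A, LINC02817, LINC01809, C1orf94, LOC124900842 and FOXB1, with log2 changes of 4.85 to 4.99; the RNA of these 6 genes was too low to be tested.

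The largest falls were at sites that were well open in untreated cells, which the ranking by log2 change favours as well. The peak 89.2 kb upstream of PTBP2 (chr1:96631951-96632451), whose product regulates splicing, held 32.5, 35.2 and 30.9 CPM without drug, 20.3, 15.8 and 18.8 CPM with the lower dose and 0.939 and 0.435 CPM with the higher. Each dose lay below the one before, with log2 changes of -0.84 (± 0.15 SE; adjusted p = 0.000146) and -5.42 (± 0.29 SE; adjusted p = 1.03e-15). PTBP2 RNA differed by 0.46 at the higher dose (adjusted p = 0.108). A peak 196 kb from SLCO4C1 (chr5:102099848-102100348), which encodes an organic anion transporter, went from 25.7, 24.2 and 16.9 CPM to 0.671 and 0.652 CPM (log2 -5.02 ± 0.34 SE; adjusted p = 7.69e-14). SLCO4C1 RNA fell as well, from 15.3 to 19.3 CPM to 1.20 to 1.73 CPM (log2 -3.54, adjusted p = 1.07e-05).

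Others of the 10 largest falls were nearest to NDRG1, LINC00374, LINC02219, PCGEM1, NCKAP5, LOC107986626 and LINC02403. At the NDRG1 peak 199 reads were counted in untreated cells, 63 with the lower dose and 3 with the higher.

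**Figure D3:**
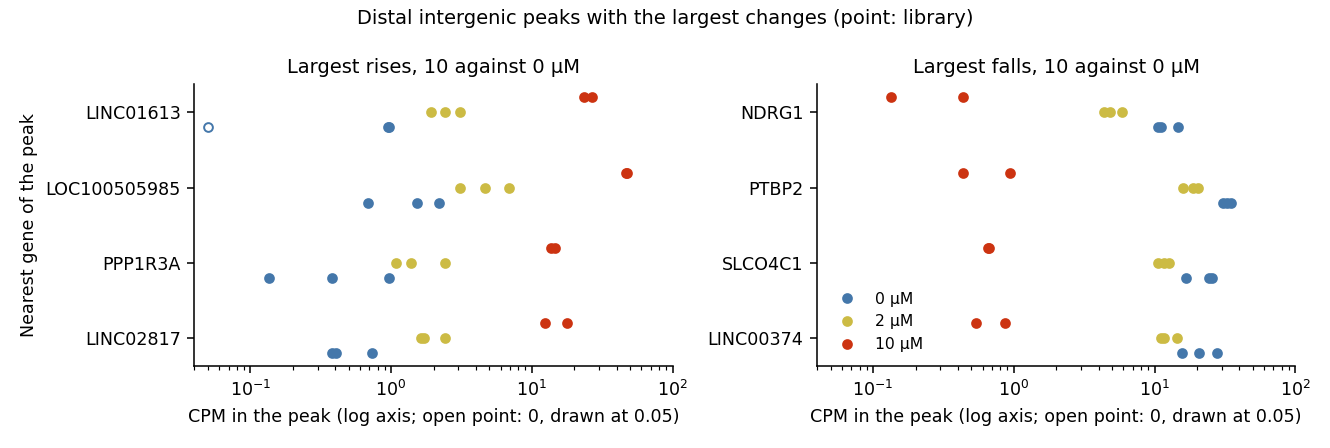
CPM (log axis) of the 4 distal intergenic peaks with the largest rises (left) and the 4 with the largest falls (right) between 0 and 10 µM, each named by its nearest gene; points are libraries, coloured by dose. The 2 µM libraries lie between the other doses for these peaks, as near LOC100505985 (3.09 to 6.88 CPM).

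At the lower dose fewer of the peaks changed and the changes were smaller. Against untreated cells, 333 rose (19.3%; background of all peaks 15.5%) and 231 fell (13.4%; background 7.30%), and the median log2 change was 0.16 against 0.02 over all peaks. Only 3 of the rises (near LINC02641, FOXB1 and NSMAF) and 2 of the falls (near BNIP2 and CPS1) reached 4-fold. Single libraries moved these counts: 178 rose without untreated replicate 2, and 121 fell without replicate 3 of the lower dose. Rises made up 68.0% of the calls over all peaks with TMM scaling and 80.7% when libraries were scaled to their promoter reads, which gave 374 rises and 148 falls among the distal intergenic peaks.

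A site 68.4 kb upstream of CTLA4, the gene of an inhibitory T cell receptor, was highest at the lower dose. The peak (chr2:203784981-203785481) held 4.12, 4.76 and 6.06 CPM in untreated cells, 25.1, 20.3 and 15.0 CPM with the lower dose and 2.28 and 3.48 CPM with the higher. The lower-dose rise was 1.95 on the log2 scale (± 0.23 SE; adjusted p = 3.19e-07). At the higher dose it differed from untreated cells by -0.85 (adjusted p = 0.0303). That call was lost with a replicate block over these doses (adjusted p = 0.348) and without untreated replicate 3 or replicate 1 of the higher dose. CTLA4 RNA stood at 0.0625, 0.0514 and 0.179 CPM, 1.03, 1.31 and 1.17 CPM and 0, 0 and 0.0606 CPM in the 3 groups, and rose at the lower dose (log2 3.52 ± 0.74 SE; adjusted p = 0.0183). That RNA call was lost without untreated replicate 1 or 2, or replicate 1 or 2 of the lower dose, with adjusted p-values in edgeR of 0.0554 to 0.0876.

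The other rises among the 5 largest at the lower dose were near NSMAF, LINC02641, FAM98B and FOXB1, with log2 changes of 1.97 to 2.06. These 4 peaks were also called as rises at the higher dose (3.38 to 4.85), and the FOXB1 call at the lower dose was lost without untreated replicate 2. The largest fall was 292 kb from CPS1, the gene of the first enzyme of the urea cycle, which is made mainly in liver. The peak (chr2:210963267-210963767) held 13.8, 11.7 and 11.9 CPM in untreated cells, 3.44, 3.78 and 2.05 CPM with the lower dose and 0.939 and 1.30 CPM with the higher. No doses overlapped, and it fell by 2.13 (± 0.27 SE; adjusted p = 9.5e-07) and by 3.49 (± 0.35 SE; adjusted p = 2.38e-10) on the log2 scale. CPS1 RNA fell by 1.90 at the higher dose (adjusted p = 2.7e-06). Its fall by 0.75 at the lower dose (adjusted p = 0.0235) was not called with only these doses fitted (adjusted p = 0.107), with total counts (0.0629), with a replicate block over these doses (0.0512), or without untreated replicate 1, replicate 1 or 2 of the lower dose, or replicate 1 or 3 of the higher.

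Upstream of CCND1, the gene of cyclin D1, a peak (chr11:69568043-69568543) went from 17.1 to 19.2 CPM in untreated cells to 4.36 to 6.19 CPM with the lower dose and 1.74 and 2.17 CPM with the higher. Those falls were called (log2 -1.79 and -3.22, adjusted p = 3.77e-07 and 1.12e-11), while CCND1 RNA passed at neither dose (log2 0.12 and 0.23, adjusted p = 0.863 and 0.493). The remaining falls of the largest 5 were near BNIP2, LINC01702 and TSPYL5, by 1.63 to 2.03 on the log2 scale.

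Between both doses of the drug, 878 peaks were higher with 10 than with 2 µM (51.0%; background of all peaks 27.5%) and 456 were lower (26.5%; background 27.6%), with a median log2 change of 0.55 against 0.06 over all peaks. Scaling to promoter reads moved the median of all peaks in this comparison to -0.10 and the share of rises among all calls from 49.96% to 38.1%; among the distal intergenic peaks rises were 65.8% of the calls with TMM and 62.1% with promoter reads. The largest rises were at sites with few reads at the lower dose and without drug, and the ranking by log2 change favours low levels at the lower dose. A peak near LOC124901507 (chr6:92945767-92946267) had 11, 6 and 124 reads over the libraries of the 3 doses in rising order, and a peak 221 kb from LINC01347 (chr1:242876012-242876512) had 17, 13 and 242. From the lower to the higher dose the log2 rise was 4.42 (± 0.43 SE; adjusted p = 7.21e-10) and 4.30 (± 0.38 SE; adjusted p = 1.04e-10).

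The share of peaks that rose at the higher dose was larger farther from a TSS. It was 46.9% of the 1018 peaks at 50 to 100 kb, 58.2% of the 550 at 100 to 250 kb, 58.9% of the 129 at 250 to 500 kb and 76.9% of the 26 at 500 kb or more. Falls made up 33.6%, 27.5%, 26.4% and 11.5% in the same order, and the median log2 change was 0.24, 1.51, 1.48 and 2.69. The bins also differed in their level in untreated cells, with medians of 10.1, 6.01, 6.20 and 2.58 CPM. At the higher dose they stood at 12.3 to 14.3 CPM. The parts of the starting level and of the making of the peak set in the order were not tested. At the lower dose 17.3%, 23.8%, 17.8% and 11.5% rose, in no such order.

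**Figure D4:**
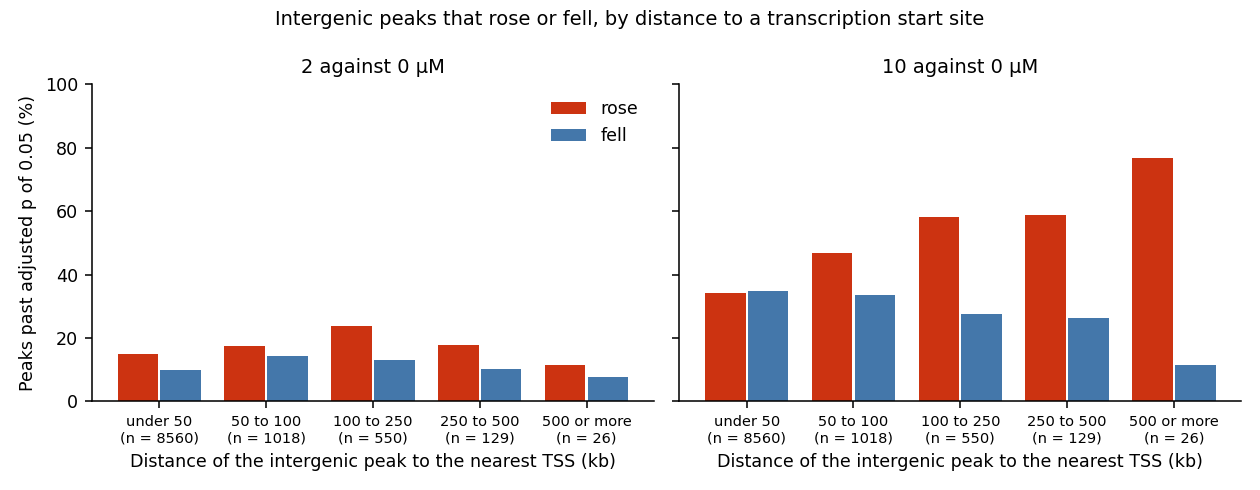
Percentage of intergenic peaks that rose or fell in edgeR at an adjusted p under 0.05, at 2 µM (left) and 10 µM (right) against 0 µM, by distance to the nearest TSS in kb; the bin under 50 kb is the comparison set. At 10 µM rises go from 34.3% in that set to 76.9% at 500 kb or more.

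The 3 peaks farthest from a TSS all rose at the higher dose: they lay 993 kb from LOC124907878 (chr2:116810586-116811086), 838 kb from the cadherin gene CDH6 (chr5:30355615-30356115) and 798 kb from OTOL1 (chr3:162295285-162295785). The first held 1.46, 0.544 and 0.757 CPM in untreated cells, 1.72, 0.688 and 1.36 CPM with the lower dose and 14.9 and 11.3 CPM with the higher. They rose by 3.94, 3.96 and 3.25 on the log2 scale (adjusted p = 2.01e-11, 7.17e-11 and 5.3e-10), and none passed at the lower dose. At the 50 kb threshold, the peaks just inside, near CTIF, LRP1B and SEPTIN10, had log2 changes at the higher dose of -0.56, -1.14 and -0.69, and those just outside, near SKA1, DCLK3 and LINC01164, of -1.11, 3.45 and 0.31.

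Each peak carries a name in the authors' consensus set that begins with a dose. The sources used here do not say how a name was given, and the set was made from these libraries, so the names are a description. Of the distal intergenic peaks 938 (54.4%) are named for 10 µM, 549 (31.9%) for 0 µM and 236 (13.7%) for 2 µM; over all peaks the percentages are 38.9, 32.3 and 28.8. Among those named for 10 µM, 882 rose and none fell at that dose, and among those named for 0 µM 446 fell and 2 rose, near LINC01891 and LINC01243. The median level of the former set went from 2.97 CPM in untreated cells to 16.7 CPM at the higher dose, and that of the latter from 15.4 to 6.14 CPM.

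Of the 10 peaks with the highest mean over all 8 libraries, 7 fell and 2 rose at the higher dose (background of all peaks 27.6% and 29.9%). The mean takes 6 libraries from the other doses and 2 from the higher, so the ranking itself favours sites that were high without the higher dose, and nothing is read from the count. Highest was a peak 53 kb from INHBB (chr2:120399091-120399591), the gene of an activin and inhibin subunit, with 75.4, 77.8 and 77.6 CPM in untreated cells, 69.1, 83.2 and 64.8 CPM with the lower dose and 104 and 83.3 CPM with the higher. It passed at neither dose (adjusted p = 0.627 and 0.0765). A peak 367 kb from EPM2A (chr6:145266938-145267438), the gene of the glycogen phosphatase laforin, held 65.7, 78.0 and 71.0 CPM in untreated cells, 74.9, 59.8 and 45.1 CPM with the lower dose and 8.32 and 8.92 CPM with the higher. The higher-dose libraries stood far below the other 6 (log2 -3.06 ± 0.20 SE; adjusted p = 4.82e-14), and the lower dose did not pass (adjusted p = 0.151).

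The peak 134 kb upstream of IFNGR1 (chr6:137353772-137354272), which encodes a chain of the interferon gamma receptor, went from 77.6, 92.3 and 79.5 CPM through 58.8, 59.1 and 55.6 CPM to 19.1 and 20.9 CPM. It fell at both doses, by 0.53 (± 0.13 SE; adjusted p = 0.00217) and 2.07 (± 0.16 SE; adjusted p = 6.72e-13) on the log2 scale, and IFNGR1 RNA fell by 1.19 at the higher dose (adjusted p = 0.000452). Peaks near ACSL3, TRIM24, SNX5, LINC00642 and FTO fell at the higher dose by 0.50 to 1.87 on the log2 scale. The peaks near ARID1B and LINC02096 rose by 0.43 and 0.51. Both calls were lost with a replicate block over these doses (adjusted p = 0.262 and 0.101 in edgeR). The former was also lost without untreated replicate 3 or replicate 1 of the higher dose, and the latter without replicate 2 of the higher dose.

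Many of the peaks lay in groups. Grouped with neighbours at most 12365 bases away, they formed 1297 groups, of which 268 held more than 1 peak and together 694 peaks (40.3%), and 13 held 5 or more. Of the 209 groups with at least 2 called peaks at the higher dose, 156 moved in one direction and 53 had both rises and falls. Rises were 62.75% of all calls among the distal intergenic peaks at that dose, so some agreement is due without any tie between neighbours. Other classes of peaks were not grouped, so these counts have no comparison and nothing is read from them. Peaks of a group lie in 1 stretch of the genome and are not independent of each other.

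The longest run lay on chromosome 20 (chr20:50388770-50456268), 17 peaks over 67.5 kb between LINC01271 and PTPN1, which encodes the tyrosine phosphatase PTP1B. Of the 8 peaks nearest to LINC01271, 7 fell at the higher dose and none rose (30.8% and 51.8% of all distal intergenic peaks). Of the 9 nearest to PTPN1, 5 rose and 2 fell, 1 of the falls (chr20:50455768-50456268) being lost with DESeq2 (adjusted p = 0.0767), with a replicate block (0.0542 over all doses and 0.0513 over these) and without untreated replicate 1 or replicate 1 of the higher dose. The strongest fall (chr20:50405749-50406249) went from 26.7, 22.6 and 15.3 CPM in untreated cells to 1.61 and 1.30 CPM at the higher dose (log2 -3.82 ± 0.31 SE; adjusted p = 3.43e-12). The strongest rise (chr20:50438933-50439433) went from 7.52, 4.49 and 7.58 CPM to 45.1 and 37.4 CPM (log2 2.71 ± 0.19 SE; adjusted p = 1.86e-13). PTPN1 RNA rose from 69.1 to 101 CPM to 202 to 239 CPM (log2 1.33 ± 0.21 SE; adjusted p = 0.000231), and LINC01271 RNA, at 0.206 to 0.844 CPM without drug, did not pass (adjusted p = 0.0621).

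**Figure D5:**
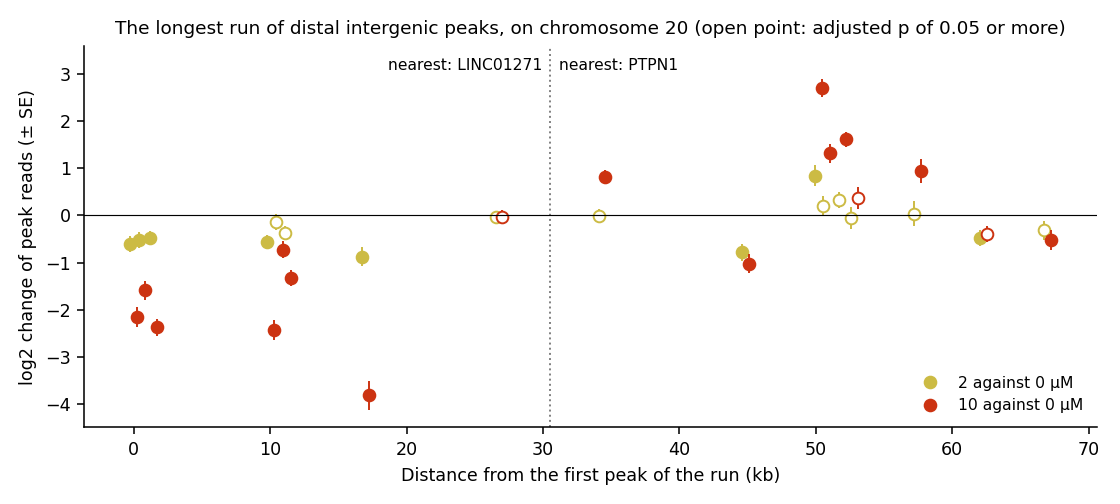
Log2 change of peak reads (± SE) at 2 µM and 10 µM against 0 µM for the 17 peaks of the longest run, by distance in kb from its first peak; filled points have an adjusted p under 0.05 in edgeR. At 10 µM the peaks on the LINC01271 side reach -3.82 and those on the PTPN1 side 2.71.

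The next runs differed in direction. Over all distal intergenic peaks 51.8% rose and 30.8% fell at the higher dose (background of all peaks 29.9% and 27.6%). Runs with equal numbers of peaks were ranked by reads over all 8 libraries, most of them from the other doses. Of 12 peaks over 29.4 kb near SNX5 (chr20:17854219-17883652), a sorting nexin of endosomes, 10 fell and 1 rose, and their summed level went from 346 to 395 CPM in untreated cells through 296 to 321 CPM to 121 and 134 CPM. SNX5 RNA fell too (log2 -1.17, adjusted p = 0.000103). Of 10 peaks near LINC01819 (chr2:42924994-42942723) 7 fell and none rose, and LINC01819 RNA fell from 3.11 to 4.09 CPM to 0.311 to 0.727 CPM (log2 -2.92, adjusted p = 3.73e-05). Of the 3 runs of 6 peaks, that near LOC124901528 (chr6:87772810-87807153) had 5 falls and no rise, that near BANF2 (chr20:17821906-17835653) 2 falls and 3 rises, and that near NDRG1 3 falls and 1 rise. The run of 7 peaks near the kinase gene PIM1 (chr6:37099318-37111015) was mixed, with 2 rises and 3 falls; the smaller rise (log2 0.33) was lost with DESeq2, with each other scaling, with only the doses compared, with either replicate block (adjusted p of 0.0734 to 0.406 over these), and without any single untreated or higher-dose library or replicate 2 of the lower dose, and 1 fall (log2 -0.53) without replicate 2 of the higher dose. PIM1 RNA did not pass (adjusted p = 0.202).

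The peaks were spread unevenly over the chromosomes. Chromosome 2 held 295 of them, 17.1% against 10.4% of all peaks, and chromosome 13 held 4.70% against 1.76%. The gene-dense chromosomes 16, 17 and 19 held 2.09%, 1.68% and 0.464% against 5.82%, 6.74% and 4.52% of all peaks. Over all distal intergenic peaks 51.8% rose at the higher dose. Rises made up 67.9% of the 53 peaks on chromosome 11 and 66.7% of the 57 on chromosome 12. They made up 42.7% of the 75 on chromosome 4 and 42.7% of the 89 on chromosome 7. Shares were lower still on chromosomes with few peaks, at 37.5% of the 16 on chromosome 22 and 33.3% of the 6 on chromosome 21. On chromosome 19 only 1 of 8 rose. The chromosomes were picked by their shares, and shares over all peaks of each chromosome are not given. Nothing is therefore read from these differences. All 8 peaks on chromosome 19 were nearest to MIMT1, a non-coding RNA of an imprinted region; 6 fell and 1 rose, and MIMT1 RNA fell (log2 -5.85, adjusted p = 8.85e-06).

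Of the 986 nearest genes, 609 had a single distal peak and the most was 12, near SNX5 and LINC01819. The genes that follow were picked after their values were seen. Near some of them the called peaks all went in one direction at the higher dose, and near others they were mixed. Over all distal intergenic peaks 51.8% rose and 30.8% fell at that dose (background of all peaks 29.9% and 27.6%). Near RAI14, which encodes an actin-associated protein, 5 of 7 peaks rose and none fell, and its RNA rose (log2 1.83, adjusted p = 4.45e-05). All 5 peaks near the serotonin receptor gene HTR2A rose, with a median log2 change of 3.03, and all 6 near KDM7A-DT fell, with a median of -1.39. Near CPS1 the 5 peaks were split, with 3 rises and 2 falls. Near DYSF 5 of 8 peaks rose and 2 fell, and near PPARGC1A 3 of 5 rose and 2 fell. The RNA of both genes fell (log2 -4.72 and -3.99, adjusted p = 0.00623 and 0.000223 in edgeR).

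The RNA of the nearest genes was set beside the peaks; the nearest gene need not be the one a site acts on. Of the 986 genes 985 had a row in the RNA table and 475 passed the filter on low counts. At the higher dose 144 of the 475 rose (30.3%; background of all genes 23.0%) and 131 fell (27.6%; background 25.1%). Scaled to total counts in place of TMM, 183 rose and 104 fell; that choice moved the median of all genes from -0.02 to 0.24 and the share of rises among all calls from 47.8% to 60.7%. The 195 genes near distal peaks that rose and none that fell had 69 rises and 39 falls in RNA, with a median log2 change of 0.34. The 143 near peaks that fell and none that rose had 32 rises and 50 falls (median -0.28), the 70 near both kinds 15 and 28 (median -0.52), and the 67 near no called peak 28 and 14 (median 0.39).

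At the lower dose 27 of the 475 genes rose in RNA (5.68%; background of all genes 3.22%) and 11 fell (2.32%; background 1.06%). Scaled to total counts, 33 rose and 8 fell, and the share of rises among all calls moved from 75.2% to 90.6%. Single libraries decided these counts. Without replicate 1 or replicate 2 of the lower dose 10 and 9 genes rose and 2 and 3 fell, and without untreated replicate 1 or replicate 2 13 rose in either case. Without untreated replicate 3 or replicate 3 of the lower dose 36 rose in either case, and 17 and 18 fell.

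PPP2R3A, a phosphatase regulatory subunit, had RNA and a peak called upward at both doses. Its peak (chr3:135759598-135760098) held 2.67, 3.26 and 2.65 CPM in untreated cells, 4.47, 9.28 and 5.59 CPM with the lower dose and 13.4 and 16.5 CPM with the higher (log2 1.10 and 2.34, adjusted p = 0.00724 and 4.88e-09), and the lower-dose call was lost without replicate 2 of that dose. PPP2R3A RNA went from 0.437 to 0.844 CPM through 3.11 to 5.50 CPM to 4.63 to 8.95 CPM (log2 2.66 and 3.32, adjusted p = 0.00263 and 2.29e-05). JCAD, a protein of endothelial junctions, also had both called at both doses, with RNA at 0.937, 1.05 and 0.793 CPM, 7.60, 5.77 and 1.53 CPM and 30.7, 35.8 and 27.0 CPM and a peak 67.2 kb upstream (chr10:30182748-30183248) that rose by 0.77 and 1.39 on the log2 scale; the lower-dose calls were lost without untreated replicate 2 for the peak and without replicate 1 or 2 of the lower dose for the RNA.

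Other genes whose RNA and distal peak both rose at the higher dose included TMCC3, KYNU, an enzyme of tryptophan breakdown, and PTHLH, the parathyroid hormone-like hormone. KYNU RNA rose from 53.5 to 78.2 CPM to 507 to 662 CPM (log2 3.12, adjusted p = 6.03e-06), beside a peak 135 kb upstream (chr2:142742284-142742784) that rose by 2.24 (adjusted p = 4.13e-08).

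Genes whose RNA and distal peak both fell at the higher dose included GPAM, which starts glycerolipid synthesis, SPP1 (osteopontin), APOB, the protein of very low density lipoprotein, CDKN3, HNMT, VAV3 and ARHGAP18. The APOB peak, 88.3 kb from the TSS (chr2:20955117-20955617), held 22.3, 14.8 and 19.5 CPM in untreated cells, 16.8, 12.4 and 12.6 CPM with the lower dose and 3.62 and 7.83 CPM with the higher (log2 -1.79 ± 0.26 SE; adjusted p = 3.54e-07). Mean APOB RNA went from 13880 CPM through 6224 CPM to 312 CPM (log2 -5.47 ± 0.32 SE at the higher dose; adjusted p = 1.36e-07). The GPAM peak (chr10:112124744-112125244) went from 7.75 to 12.1 CPM to 1.21 and 1.74 CPM (log2 -2.79, adjusted p = 1.92e-08), and GPAM RNA from 394 to 467 CPM to 26.1 to 35.9 CPM (log2 -3.80, adjusted p = 1.11e-07). A peak 63.9 kb upstream of SPP1 (chr4:87911312-87911812) fell by 1.85 and SPP1 RNA by 5.13 on the log2 scale (adjusted p = 2.21e-07 and 1.15e-07).

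The RNA of the factors in the motif list was measured with no test that ties a factor to a peak. Of 54 factors tested 18 rose and 12 fell at the higher dose (background of all genes 23.0% and 25.1%), and at the lower BATF and ETS1 rose and NFE2L2 fell (2 rises and 1 fall). The BATF and ETS1 calls at the lower dose were lost with a replicate block over these doses (adjusted p = 0.108 and 0.0839), the NFE2L2 call with total counts (0.101), and all 3 calls without replicate 1 or replicate 2 of the lower dose. Among the 10 of the FOS, JUN and ATF families, FOSL1, FOSB, JUN, JUNB, ATF3 and BATF rose at the higher dose, and FOS, FOSL2, JUND and ATF1 did not pass; the JUNB call was lost without untreated replicate 1 or 2, or replicate 2 or 3 of the higher dose (adjusted p of 0.0548 to 0.107 in edgeR). JUN RNA was 23.7, 43.1 and 72.8 CPM without drug, 97.2, 74.3 and 53.6 CPM with the lower dose and 291, 285 and 331 CPM with the higher (log2 2.70 ± 0.35 SE; adjusted p = 4.42e-05). FOSL1 RNA went from 1.81, 3.26 and 2.17 CPM to 23.1, 31.0 and 24.2 CPM (log2 3.43 ± 0.33 SE; adjusted p = 3.84e-06). Of the 9 listed factors of the HNF4, FOXA and C/EBP families, 6 fell, CEBPB rose and FOXA2 and CEBPG did not pass at the higher dose. HNF4A fell by 1.83 (adjusted p = 2e-05), FOXA1 by 2.21 (adjusted p = 9.26e-06) and CEBPA by 1.87 (adjusted p = 0.00178) on the log2 scale, and HNF4G, FOXA3 and CEBPD fell as well. The HNF4G call was lost with total counts (adjusted p = 0.0555) and without replicate 1 or 3 of the higher dose. CEBPB RNA rose by 0.67 (adjusted p = 0.0292), a call lost without untreated replicate 1 or 2, or replicate 2 or 3 of the higher dose.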

How the data were processed

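The members, the gene and motif lists and the tests were chosen with earlier results of these data known. The authors deposited raw read counts per gene and per consensus peak of 501 bp. Their tools, by the submitters' processing notes, included HISAT2 2.2.1, HTSeq 2.0.4, DiffBind 3.12.0 and DESeq2 1.42.1 with hg38. The peak caller and the use of strand in gene counting are not given in the sources used here; RNA of a gene and of its antisense partner may therefore be mixed. The consensus set holds 63621 peaks, each with a score deposited by the authors that was not used, and 58372 have counts. Classes and distances to the TSS are those of the deposited annotation.

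The tests ran in edgeR 4.0.16 (R 4.3.3): quasi-likelihood, all doses of an assay in 1 model, TMM, filterByExpr, prior count 0.125, and Benjamini-Hochberg over 58372 peaks or 18999 genes with a threshold of 0.05. The filter removed no peak. A standard error (SE) here is the size of a log2 change divided by the root of its F statistic, and CPM use TMM-scaled totals. The code was tested on simulated counts. Library measures were compared by exact permutation, over all doses with the between-dose sum of squares and for each pair of doses two-sided. Replicates differed beyond counting noise, and none was merged. RNA libraries of 0 and 2 µM with the same number in the labels deviated together (r = 0.194, 0.264 and 0.283 across genes), so a replicate block was also fitted.

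Peaks were named by rule: the 10 largest changes per direction between 0 and 10 µM and the 5 largest in the other comparisons, among those past the threshold, at 2 CPM or more in the higher group and without overlap; the 10 highest; the 3 farthest; 3 on each side of the threshold; the 5 longest runs; and up to 8 genes per comparison and direction with peak and RNA called alike, by RNA p. The text gives some of these, and a few are not reported here. Peaks on gene starts and genes with several peaks were chosen after their values were seen. Alternatives were DESeq2 1.42.0, other scalings, filters and thresholds, replicate blocks, each library left out and a distance of 100 kb.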

Additional observations from a re-analysis of the deposited data

How the results depend on the processing

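For 0 to 2 µM, where 333 distal intergenic peaks rose and 231 fell, rises were 208 with DESeq2 and 185 at an adjusted p under 0.01, and falls were 148 with promoter reads and 135 at an adjusted p under 0.01; leaving out single libraries gave 178 to 334 rises and 121 to 297 falls. Fewer peaks were counted at 100 kb or more from a TSS: 157 rose and 86 fell for 0 to 2 µM, 416 and 188 for 0 to 10 µM, and 413 and 165 for 2 to 10 µM, with 14 and 3 nearest genes in RNA for 0 to 2 µM and 56 and 48 for 0 to 10 µM. For RNA of the nearest genes from 0 to 2 µM (27 rises, 11 falls), a fit of only these doses gave 16 and 5, an adjusted p under 0.01 gave 7 and 2, falls were 23 with DESeq2 and 33 with no filter, and leaving out single libraries gave 9 to 36 rises and 2 to 18 falls. The counts of peaks between 0 and 10 and between 2 and 10 µM stayed within 1.5 times of the main ones under all other alternatives run. Restricting to peaks in no RefSeq gene was added after seeing the data.

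With doses permuted within replicate numbers as a block, the share of peak reads in distal intergenic peaks differed by 0.599 points between 10 and 0 µM with an exact permutation p of 0.0833, and the log2 ratio of reads in distal intergenic peaks to reads in intergenic peaks within 50 kb by 0.41 with p = 0.0556; the numbers did not pair the ATAC libraries. Without single libraries the share difference was 0.581 to 0.617 points. With a replicate block in the RNA fit, 26 nearest genes rose and 11 fell from 0 to 2 µM over all doses, and 19 and 14 over the doses compared, which moved neither count by over 1.5 times. Over all genes the block over the doses compared moved 611 rises to 399 and 202 falls to 314. Of 5530 recomputed calls of named peaks 173 were lost and 0 reversed, and of 1815 recomputed RNA calls of listed genes 179 were lost and 0 reversed. Depth limits peaks near 1 CPM, which had few reads per library.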

Other observations

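Ordered by the means of the 3 doses, 843 of the 1723 distal intergenic peaks (48.9%) went up from 0 through 2 to 10 µM and 492 (28.6%) went down, against 30.1% and 24.9% of all peaks. The highest mean was at 2 µM in 196 (11.4%), against 22.1% of all peaks, and the CTLA4 peak is 1 of these. All 35 distal peaks inside protein-coding genes of RefSeq were called at 10 µM, 20 as rises (57.1%) and 15 as falls (42.9%), and of the 277 inside long non-coding RNA genes 129 rose (46.6%) and 100 fell (36.1%). The same shares are 51.8% and 30.8% over the distal intergenic peaks and 29.9% and 27.6% over all peaks. Of the 9 distal peaks near HS6ST1, the gene of a heparan sulfate sulfotransferase, 4 rose and 4 fell, and HS6ST1 RNA fell at 10 µM (log2 -2.07, adjusted p = 3.77e-06).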
